A study of Mus musculus with 6 samples.

Results

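Lipid-associated macrophages (LAMs) lacking Clec4f were examined in single nuclei RNA sequencing of DIAMOND mouse livers, where 337 of 39012 nuclei met a rule based on their transcripts. The rule took nuclei with more than 200 and under 5000 detected genes and under 5% mitochondrial unique molecular identifiers (UMIs, each standing for 1 captured RNA molecule). They had to hold at least 2 of the 6 LAM markers Trem2, Gpnmb, Itgad, Itgax, Mmp12 and Atp6v0d2 and at least 1 UMI of the macrophage genes Adgre1, Csf1r, Msr1 or Cd68. Nuclei with any UMI of Clec4f, Timd4 or Flt3, which mark resident Kupffer cells and dendritic cells, were left out, as were those with more than 1 UMI in sum of Stab2, Ptprb, Skap1, Ebf1 and Reln, which mark endothelial cells, T cells, B cells and stellate cells. These transcripts chose the nuclei, called members here, so the members were selected on the levels of these 18 genes, which are given as a description with no test.

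All 6 mice were males of the DIAMOND strain, a cross of 129A1/SvIm and C57BL/6J mice, and 1 library was made from the liver of each. The 2 Ctrl mice ate a chow diet for 40 weeks, the 2 Pre-T mice a Western diet (high in fat, with sugar water) for 40 weeks, before tumors had formed, and the 2 Post-T mice the Western diet for 48 weeks, after tumors had formed. The diets began at 2 months of age, so the Post-T mice were also older, and tumor, age and length of diet cannot be told apart. The titles of the Post-T samples name tumor tissue while their source is given as liver, so how much of those nuclei came from tumor is not known here.

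LAMs are macrophages that gather where lipid from dying or overloaded cells has to be cleared, as in fatty liver and obese fat tissue. TREM2 is a surface receptor for lipids and cell debris that signals through the adaptor DAP12 (Tyrobp), and cells with it take up lipid, digest it in lysosomes and pass cholesterol on through exporters such as ABCA1. Clec4f and Timd4 are kept by Kupffer cells of embryonic origin, and macrophages that newly arise from monocytes lack them at first.

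The libraries held 22453658 to 40307564 UMIs and 5323 to 7846 nuclei after the filter. Across the 15 pairs of libraries 7 to 21 cell barcodes were shared per pair, and 2 members carried a shared barcode. The doublet caller Scrublet marked 0 to 2 nuclei per library, at most 0.0376%, and no member, so it has not worked on these libraries and doublets among the members were not removed. The members of the 2 Post-T mice stood apart from each other more than the members of the 2 Pre-T mice did, as the marker levels given further on show, and the values of both mice are therefore given throughout. Levels are given as CPM, the UMIs of a gene per 1000000 UMIs when all are summed over the nuclei of 1 class in 1 mouse.

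Members were found almost only in the mice on the Western diet. Ctrl 1 had 1 member among 7231 nuclei and Ctrl 2 had 2 among 7772. Pre-T 1 had 104 among 5407 (1.92%, 95% exact binomial interval 1.57 to 2.33%) and Pre-T 2 had 110 among 7846 (1.40%, 1.15 to 1.69%). Post-T 1 had 83 among 5433 (1.53%, 1.22 to 1.89%) and Post-T 2 had 37 among 5323 (0.695%, 0.490 to 0.957%). The 4 Western diet mice did not overlap with the 2 Ctrl mice, which were at 0.0138 and 0.0257%. Their mean share was 1.39% ± 0.512 (SD, n = 4) against 0.0198% ± 0.00842 (SD, n = 2), a difference of 1.37 percentage points (exact two-sided permutation test over mice, p = 0.0667, the smallest that 4 against 2 mice allow). Intervals cover counting error only, and a lower share cannot be told apart from less RNA per nucleus, since the rule needs UMIs.

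The share of all nuclei moves with the number of hepatocytes, so the members were also set against the nuclei of the macrophage gate, those with the same macrophage genes, 0 UMIs of Flt3 and the same limit on the other lineage genes. Of these, members made up 0.168 and 0.433% in Ctrl, 8.63 and 4.998% in Pre-T and 7.79 and 9.61% in Post-T. The Western diet mice again did not overlap with Ctrl (7.76% ± 1.98, n = 4, against 0.301% ± 0.187, n = 2, difference 7.46 points, exact permutation p = 0.0667). Between Pre-T and Post-T the order depended on the denominator and the depth. Post-T lay 0.551 points below Pre-T in the share of all nuclei (1.11% ± 0.589 against 1.66% ± 0.369, SD, n = 2 each, exact permutation p = 0.667) and 1.88 points above it in the share of the gate (8.70% ± 1.29 against 6.81% ± 2.57, p = 0.667). With 2 against 2 mice no p under 0.333 can be reached, and neither difference exceeded the larger SD of its 2 groups. After thinning every nucleus to 500 UMIs, Post-T lay below Pre-T in both, by 0.313 points of all nuclei and 1.27 points of the gate (exact permutation p = 0.333 each).

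**Figure D1:**
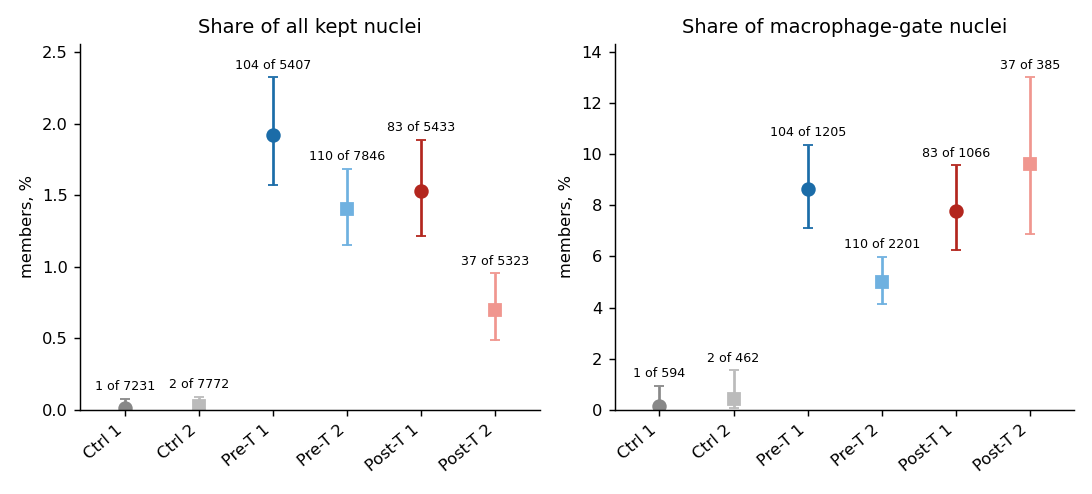
Share of nuclei that met the rule in each of the 6 mice, as a percentage of all kept nuclei (left) and of macrophage-gate nuclei (right). Bars are 95% exact binomial intervals of the nuclei counted, and the numbers are members of nuclei. The 2 Ctrl mice lie at or under 0.433% on both sides, below each of the 4 Western diet mice.

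The strictness of the rule set the size of the shares. With at least 3 of the 6 markers there were 38 and 32 members in the Pre-T mice, 11 in Post-T 1, 22 in Post-T 2 and 0 in either Ctrl mouse. With every nucleus thinned to 500 UMIs, which puts all libraries at 1 depth, 25, 26, 5 and 4 nuclei still met the rule, and again 0 in Ctrl. At the edge of the rule, nuclei with exactly 2 markers made up 66 of 104 members in Pre-T 1, 78 of 110 in Pre-T 2, 72 of 83 in Post-T 1 and 15 of 37 in Post-T 2. Nuclei that met the rule but for exactly 1 marker numbered 10 and 12 in Ctrl, 209 and 343 in Pre-T and 289 and 51 in Post-T. Most members of Post-T 1 thus lay just inside the threshold, and most members of Post-T 2 had 3 or more markers.

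Free RNA in the droplets can add a marker UMI to a nucleus that does not express it. Among endothelial-gated nuclei, which had at least 2 UMIs of Stab2 and Ptprb and none of the 4 macrophage genes, 2 or more LAM markers were found in 0 of 928 (which allows up to 0.323%) and 0 of 917 (up to 0.327%) in Ctrl, in 4 of 405 (0.988%) and 13 of 583 (2.23%) in Pre-T and in 2 of 559 (0.358%) and 1 of 1343 (0.0745%) in Post-T. In the 4 Western diet mice each of these shares lay below that in the macrophage gate of the same mouse, most closely in Pre-T 2. In Ctrl the 1 and 2 members are too few to set apart from the limits. Nuclei with UMIs of the 4 macrophage genes were left out of this class, so its shares may understate the free RNA in others. Members were deeper than endothelial-gated nuclei in 3 of the 4 Western diet mice, with medians of 3058, 2666.5, 4715 and 3190 UMIs against 3331, 2001, 1679 and 1953, in the order Pre-T 1, Pre-T 2 and then Post-T 1, Post-T 2. All further lists of 4 values follow that order.

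The macrophage part of the label was checked on 15 immune and macrophage genes that the rule did not use. Among them were Ptprc (CD45), Tyrobp, Mpeg1, Cd84 and Dock2. They were not chosen to tell LAMs from other macrophages, and LAM genes outside the rule are given further on. The summed level of the 15 genes in members was 6392, 5922, 4417 and 5860 CPM. It was 641, 1334, 441 and 607 CPM in endothelial-gated nuclei and 3477, 2417, 1812 and 2407 CPM in gate nuclei with 0 LAM markers. Members thus lay several-fold above nuclei of another type in each mouse, and also above gate nuclei with 0 markers. The rule required a macrophage UMI and the endothelial gate excluded any, so selection favoured the gap between these classes. The 5 markers set for the label are all genes of the rule and so are no check of it. Of these, Msr1, a scavenger receptor, was detected in 48.1, 38.2, 41.0 and 45.9% of members.

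Hepatocyte transcripts, the most abundant free RNA of liver, were present in members at a lower level than elsewhere. The 12 hepatocyte genes summed to 5795, 20252, 5427 and 16766 CPM in members and to 15496, 27060, 14615 and 24742 CPM in endothelial-gated nuclei. They differed up to several-fold between mice, and replicate 2 of each group had more of them than replicate 1 in both classes. Several lists of markers of other types were low. They were at 12 to 39 CPM for 10 T cell genes and 0 to 8 CPM for 7 NK cell genes. The 8 cholangiocyte genes were at 39 to 159 CPM and the 10 endothelial genes at 227 to 718 CPM. Erythroid genes reached higher levels and are given, with those of conventional dendritic cells, for parts of the members further on. B cell genes summed to 231 to 465 CPM and genes of plasmacytoid dendritic cells to 477 to 962 CPM, mostly from Bank1 and from Tcf4 and Runx2, while Ms4a1, which defines B cells, was at 0 in all 4 mice and Siglech, which defines plasmacytoid dendritic cells, at 0 in 3 of them. Cd163, a gene of resident macrophages, was at 0 in all members of the 4 mice.

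The 6 markers of the rule did not mark the members evenly. Gpnmb, a lysosomal and surface glycoprotein of lipid-laden macrophages, was found in 51.0, 40.9, 22.9 and 62.2% of members. Mmp12, the macrophage elastase, was found in 41.3, 47.3, 12.05 and 64.9%. Atp6v0d2, a subunit of the proton pump that acidifies lysosomes, was found in 50, 33.6, 27.7 and 81.1%. All 3 were lowest in Post-T 1 and highest in Post-T 2, with both Pre-T mice between. Itgad, the alpha D chain of the beta 2 integrins, had the opposite order at 25, 39.1, 71.1 and 8.11%.

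Itgax (CD11c) was found in 49.0, 57.3, 56.6 and 45.9% of members, a narrow range. Trem2 itself was found in 44.2, 27.3, 30.1 and 24.3%, so that most members carried no Trem2 UMI. In level, Mmp12 was at 896, 664, 32.7 and 1604 CPM, Gpnmb at 478, 415, 313 and 1471 CPM and Itgad at 217, 304, 461 and 31.3 CPM. Post-T 1 was lowest and Post-T 2 highest in Mmp12 and Gpnmb also by CPM, with the order turned round for Itgad. After thinning to 500 UMIs, Itgad was still found in 8.65, 16.4, 24.1 and 0% of members and Mmp12 in 25, 20, 6.02 and 35.1%, so that Post-T 1 and Post-T 2 were still at the opposite ends.

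**Figure D2:**
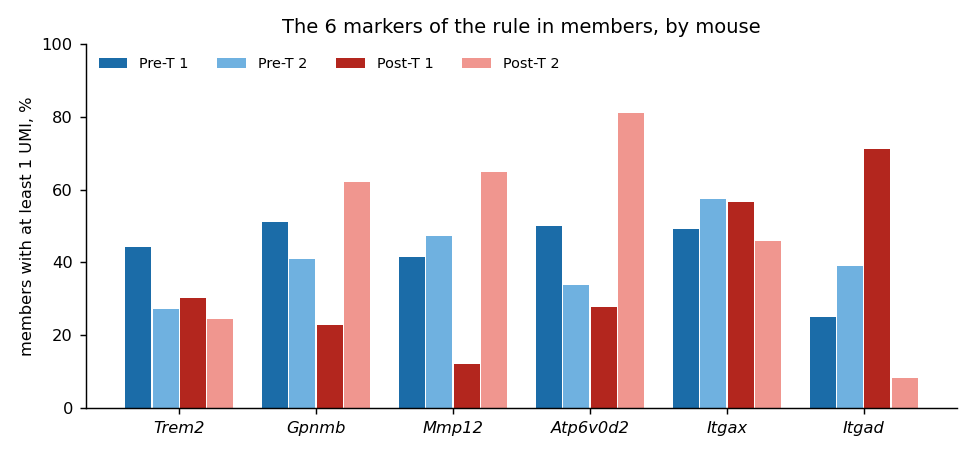
Percentage of members with at least 1 UMI of each marker of the rule, 1 bar per Western diet mouse. In Gpnmb, Mmp12 and Atp6v0d2 Post-T 1 is the lowest bar and Post-T 2 the highest, and in Itgad the order is the reverse.

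The members were therefore split, after these values had been seen and with no test, into nuclei with Itgad and none of Gpnmb, Mmp12 and Atp6v0d2 (the Itgad subset) and nuclei with at least 1 of those 3 and no Itgad (the Gpnmb/Mmp12/Atp6v0d2 subset). The Itgad subset held 19, 25, 48 and 2 members and the Gpnmb/Mmp12/Atp6v0d2 subset 73, 60, 21 and 34. Both kinds of marker were together in 7, 18, 11 and 1 members, and 5, 7, 3 and 0 had Trem2 and Itgax as their only markers. Most members of Post-T 1 fell in the Itgad subset and nearly all of Post-T 2 in the other. The Itgad subset often held Itgax as its other marker, since Itgad and Itgax occurred together in 20, 29, 36 and 2 members. The genes lie next to each other on the same strand of chromosome 7 (GRCm38, Itgax 128129547 to 128150657 and Itgad 128154376 to 128223816), 3718 bases apart, and whether reads of one were counted for the other was not tested.

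The subsets differed in many genes that did not choose them, in some the same way in the 3 mice with enough nuclei and in others with the order turned round in Post-T 1. The 23 LAM genes outside the rule did the latter, at 6442, 9126 and 6449 CPM in sum in the Itgad subset and 11099, 11461 and 3047 CPM in the other. These values, and those that follow, are for Pre-T 1, Pre-T 2 and Post-T 1, since the Itgad subset of Post-T 2 had only 2 nuclei. Fcrl5, an Fc receptor-like protein best known from B cells, was at 1487, 826 and 1165 CPM in the Itgad subset and at 14, 9 and 54 CPM in the other. Grap2, an adaptor protein of immune receptor signalling, was at 929, 1416 and 1627 CPM against 14, 14 and 27 CPM. Klra17, a lectin-like receptor of the Ly49 family, was at 496, 629 and 475 CPM against 51, 32 and 34 CPM. These transcripts were thus near 0 in members with Gpnmb, Mmp12 or Atp6v0d2 and no Itgad. Slit3, a secreted guidance protein, was at 2385, 787 and 125 CPM in the Itgad subset, so that it also differed widely between mice. In the other subset it had 0, 2 and 0 UMIs. Only 8.65, 21.8 and 9.64% of all members carried it.

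Signalling kinases and the lipid regulator PPARγ were also higher in the Itgad subset. Ptprc was at 3701, 3134 and 1990 CPM there against 1000, 752 and 276 CPM. Lyn, a Src family kinase, was at 3438, 2308 and 3406 CPM against 1119, 986 and 344 CPM. Pparg was at 1316, 1560 and 2124 CPM against 537, 329 and 654 CPM. The 14 genes of TREM2 and DAP12 signalling, to which Lyn belongs, summed to 8657, 6556 and 8792 CPM against 4492, 3493 and 1874 CPM. Cadm1, an adhesion molecule on the LAM list, was at 3128, 2360 and 3182 CPM against 2047, 1143 and 870 CPM. The proliferation genes were higher as well, at 2245, 590 and 1017 CPM for 18 genes against 670, 207 and 142 CPM. Erythroid and conventional dendritic cell markers were also higher there. The 6 erythroid genes summed to 712, 1547 and 2155 CPM against 248, 918 and 1092 CPM. The 8 genes of conventional dendritic cells summed to 604, 538 and 632 CPM against 187, 153 and 67 CPM.

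Some genes of lipid uptake, efferocytosis and cholesterol export were higher in the Gpnmb/Mmp12/Atp6v0d2 subset of the Pre-T mice, and those named here were chosen after their values were seen. Over the whole list of 25 genes of cholesterol and lipid handling the sums lay closer, at 4607 and 4254 CPM in that subset of Pre-T 1 and Pre-T 2 against 3872 and 3606 CPM in the Itgad subset, and in Post-T 1 the order was turned round, at 2906 against 4105 CPM. Mertk, a receptor for dying cells, was at 1129 and 977 CPM in the Gpnmb/Mmp12/Atp6v0d2 subset of Pre-T 1 and Pre-T 2 against 263 and 223 CPM in the Itgad subset. Abca1, the cholesterol exporter, was at 1466 and 1211 CPM against 263 and 144 CPM. Lpl, which hydrolyses triglycerides, was at 1034 and 608 CPM against 279 and 52 CPM. In the same mice Cd36, a fatty acid and oxidised lipid receptor, was at 466 and 464 CPM against 46 and 79 CPM. The class II gene H2-Ab1 was at 340 and 243 CPM against 15 and 92 CPM.

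Lysosomal genes were also higher in that subset of both Pre-T mice. Psap, which makes the saposins that activate lipid breakdown, was at 1109 and 1013 CPM in the Gpnmb/Mmp12/Atp6v0d2 subset of Pre-T 1 and Pre-T 2 against 279 and 538 CPM. The 25 lysosomal genes summed to 7770 and 6762 CPM against 4615 and 4799 CPM. Mitf, a transcription factor of the family that drives lysosome formation, was at 1061 and 1215 CPM against 372 and 210 CPM. Post-T 2, which had this subset almost alone, was at 1674 CPM for Psap, 6770 CPM for the 25 genes and 1463 CPM for Mitf. The 3 values of Post-T 2 lay near or above those of Pre-T in the same subset.

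The 21 nuclei of this subset in Post-T 1 did not follow the pattern for every gene. Mertk was at 607 CPM there against 462 CPM in the Itgad subset, Mitf at 263 against 354 CPM, Lpl at 67 against 233 CPM and the 25 lysosomal genes at 3324 against 5274 CPM. Abca1 (566 against 58 CPM), Myo5a (209 against 54 CPM) and Cd36 (142 against 54 CPM) kept the direction of Pre-T. The same 21 nuclei had the lowest sum of the 15 immune and macrophage genes, 1530 CPM against 5150 to 6093 CPM in this subset of the other 3 mice, 3485 CPM in nuclei of Post-T 1 with 1 marker and 441 CPM in its endothelial-gated nuclei. Their level of macrophage transcripts was thus nearer to that of other cell types than in any other mouse, and its part in the values of Post-T 1 was not tested. These 21 nuclei were also deeper, with 148320 UMIs in sum. In this subset Pre-T 1 had 294087 UMIs in 73 nuclei, Pre-T 2 had 222138 in 60 and Post-T 2 had 118909 in 34. The part of depth was not tested either.

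**Figure D3:**
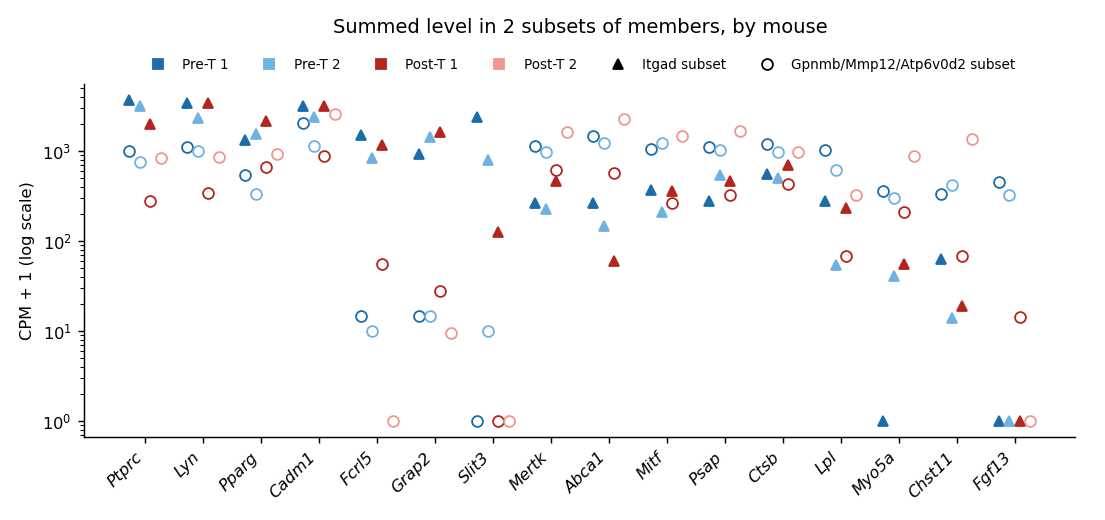
CPM + 1 (log scale) of 16 genes in members with Itgad and none of Gpnmb, Mmp12 and Atp6v0d2 (triangles) and in members with at least 1 of these 3 and no Itgad (open circles), by mouse. Values at 1 stand for 0 UMIs, and Post-T 2 has no triangle since its Itgad subset held 2 nuclei. Ptprc to Slit3 are higher in the triangles of the 3 mice, while Mertk to Fgf13 are higher in the circles of both Pre-T mice.

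Members were then set beside the other macrophages of the same livers. Kupffer-type nuclei met the same filters and gate, had at least 2 UMIs in sum of Clec4f and Timd4 and at most 1 LAM marker, and numbered 122 and 120 in Ctrl, 108 and 207 in Pre-T and 5 and 23 in Post-T. Nuclei with both programmes, at least 2 LAM markers and at least 2 UMIs of Clec4f and Timd4, numbered 0 and 0, 15 and 39, and 0 and 2. In the Pre-T mice the Kupffer-type nuclei were thus about as many as or more than the members, while Post-T 1 had almost none. Values for Kupffer-type nuclei are given for Pre-T 1, Pre-T 2 and Post-T 2, the 3 Western diet mice with at least 10 such nuclei. The differences are descriptions, since the rule chose both classes by their transcripts.

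Kupffer cell genes outside the rule were low in members. The 12 genes summed to 1424, 1216, 631 and 1142 CPM in members and to 6121, 4737 and 4079 CPM in Kupffer-type nuclei. Cd5l, a secreted scavenger protein, was at 585, 415, 124 and 454 CPM against 2303, 1593 and 1205 CPM. Slc40a1, the iron exporter ferroportin, was at 241, 148, 63.1 and 391 CPM against 1530, 1099 and 1298 CPM. Vsig4, a complement receptor, was at 136, 137, 52.2 and 23.5 CPM against 702, 621 and 491 CPM. Absence of Clec4f thus went along with low levels of most of the Kupffer cell programme.

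Other genes that were far lower in members than in Kupffer-type nuclei, taken by the size of the mean log2 ratio, included Sema6d, Hdac9, P2ry12 and Kcnj16. Sema6d, a semaphorin, was at 83.6, 111, 111 and 110 CPM against 552, 496 and 862 CPM. Hdac9, a histone deacetylase, was at 447, 323, 433 and 227 CPM against 2300, 1515 and 1604 CPM. Kcnj16, a potassium channel, was at 35.8, 21.1, 0 and 141 CPM against 394, 240 and 538 CPM. The mean log2 ratios of the 15 lowest genes ranged from -5.40 for Gbp2b, an interferon-induced GTPase, to -2.47 for Hdac9. The mannose receptor Mrc1 was also lower, at 404, 243, 222 and 289 CPM against 917, 785 and 1010 CPM.

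Genes higher in members than in Kupffer-type nuclei were led by Myo5a, Anxa1 and Fcrl5. Myo5a, a motor protein of organelle transport, was at 270, 219, 113 and 821 CPM against 26.9, 27.3 and 0 CPM (mean log2 ratio 5.31). Fcrl5 was at 270, 270, 703 and 23.5 CPM against 2.44, 16.7 and 0 CPM (mean log2 ratio 4.95). Anxa1, a phospholipid-binding protein that limits inflammation, had a mean log2 ratio of 5.25, and Il7r, the interleukin 7 receptor, one of 4.88. The genes among the 15 highest came from both subsets. Fcrl5, Grap2, Klra17 and Slit3 were transcripts of the Itgad subset and Myo5a, Chst11, St18 and Fgf13 of the other. Those of the Itgad subset were not particular to members. In nuclei with exactly 1 marker Grap2 was at 225, 389, 793 and 20.4 CPM, against 203, 428, 973 and 31.3 CPM in members. Fcrl5 was at 151, 246, 586 and 40.9 CPM there. Slit3 exceeded members in Pre-T 2 and Post-T 1 and was lower in Pre-T 1 and Post-T 2. Myo5a was lower there, at 62.0, 51.8, 51.5 and 170 CPM.

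Against all other nuclei of the liver, the 20 genes with the highest mean log2 ratio ran from 3.08 to 3.97. St18, a zinc finger transcription factor, was at 378, 262, 220 and 1174 CPM in members against 22.9, 35.3, 29.0 and 15.5 CPM in the rest (mean log2 ratio 3.97). Ms4a7, a membrane protein of monocyte-derived macrophages, was at 246, 172, 237 and 289 CPM against 18.5, 28.4, 22.0 and 7.05 CPM (3.69). Both were higher in members of each mouse. Adam8, a surface protease, had a ratio of 3.92, Lgals3, a galectin secreted by LAMs, 3.62 and Rab7b, a GTPase of late endosomes, 3.59. Tnfrsf11a, the receptor RANK that drives osteoclast formation, had a ratio of 3.24 and was at 272, 235, 253 and 297 CPM in members. Kupffer-type nuclei held nearly as much, with 244, 194 and 241 CPM.

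The lysosomal and acidification genes outside the rule were higher in members than in most other classes. The 25 lysosomal genes summed to 6983, 5937, 4434 and 6572 CPM in members, 3089, 3707, 2653 and 2542 CPM in gate nuclei with 0 markers and 1993, 2894, 1889 and 1528 CPM in endothelial-gated nuclei. Kupffer-type nuclei, at 5828, 6263 and 4422 CPM, were not set apart from members by this sum. The 16 other subunits of the vacuolar ATPase, the pump to which Atp6v0d2 belongs, summed to 2227, 1874, 1489 and 2723 CPM in members against 1696, 1625 and 1270 CPM in Kupffer-type nuclei and 666 to 948 CPM in endothelial-gated nuclei. Atp6v0a1 was at 411, 296, 159 and 485 CPM against 191, 126 and 148 CPM in Kupffer-type nuclei. Psap was at 932, 793, 377 and 1580 CPM in members against 306, 466 and 278 CPM, while the protease gene Ctsb, at 1016, 780, 601 and 915 CPM against 653, 878 and 742 CPM, was not higher in each mouse.

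The LAM genes outside the rule split into those that set members apart and those that did not. Lgals3 was at 375, 262, 187 and 954 CPM in members against 117, 138 and 93 CPM in Kupffer-type nuclei. Lpl was at 822, 471, 148 and 313 CPM against 420, 202 and 204 CPM. Cadm1 was at 2177, 1628, 2218 and 2535 CPM against 1032, 855 and 1149 CPM. All 3 were higher in members of each of the 3 mice compared. The sum over the 23 genes, 9738, 10651, 5005 and 11508 CPM, was less distinct (6502, 9813 and 6433 CPM in Kupffer-type nuclei), since Apoe alone was at 2712, 4935, 673 and 4178 CPM in members and at 2447, 7312, 1427 and 6506 CPM in gate nuclei with 0 markers. Spp1 (osteopontin), another LAM gene, was at 59.7, 97.8, 8.71 and 31.3 CPM in members and was found in 12.5, 25.5, 4.82 and 2.70% of them.

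**Figure D4:**
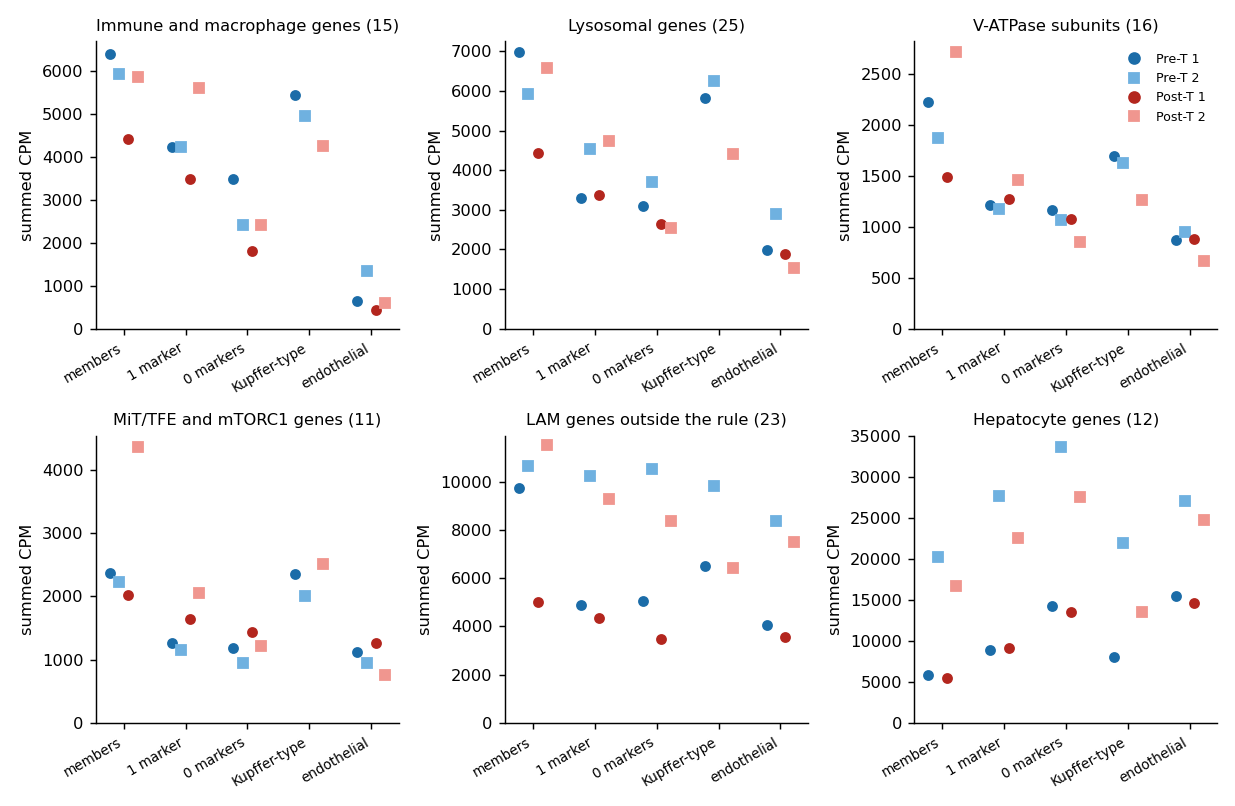
Summed CPM of 6 gene lists in members and in 4 other classes of nuclei, 1 point per Western diet mouse, with each axis starting at 0. Kupffer-type nuclei of Post-T 1 are left out since it had 5. Members lie above nuclei with 0 markers and endothelial-gated nuclei in immune, lysosomal, V-ATPase and MiT/TFE genes in each mouse, and below them in hepatocyte genes.

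Lipid receptors, regulators and transcription factors gave a mixed picture. Pparg was at 700, 767, 1489 and 994 CPM in members against 227, 184 and 584 CPM in Kupffer-type nuclei, so that it was higher in members of each mouse compared. Mertk went the other way, at 934, 693, 549 and 1580 CPM against 1946, 1171 and 2086 CPM. Abca1 was at 1190, 812, 246 and 2136 CPM against 809, 923 and 575 CPM, with the order differing between mice. Mitf, at 870, 954, 379 and 1424 CPM against 1022, 758 and 1038 CPM, differed likewise. Fnip2, which with folliculin controls these transcription factors, was at 499, 412, 653 and 1502 CPM against 271, 247 and 241 CPM, higher in members of each mouse.

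Finally, members of Post-T livers were compared with those of Pre-T livers, which asked whether LAMs changed once tumors had formed. The members of these mice differed in make-up, with 18.3, 22.7, 57.8 and 5.41% of them in the Itgad subset. The part of this mix in the calls was not tested. For 14168 genes the UMIs of all members of a mouse were added up and the mice compared with edgeR's quasi-likelihood test. With 3 members, the Ctrl mice could not enter such a test. At an adjusted p under 0.05, 47 genes were called (0.332% of those tested), 15 higher in Post-T (0.106%) and 32 lower (0.226%), and 958 genes (6.76%) passed an unadjusted p of 0.05. The median log2 fold change of all genes was -0.11. Calls in other classes were fewer, 28 of 18146 genes in gate nuclei with 0 markers (0.154%), 3 of 16103 in nuclei with 1 marker (0.0186%), 15 of 18315 in endothelial-gated nuclei (0.0819%) and 0 of 23309 in all other nuclei (edgeR, 4068 at an unadjusted p under 0.05), and the difference in counts was not tested. The count rested on single mice, with 131 calls when Pre-T 1 was left out, 22 when it was Pre-T 2, 31 when it was Post-T 1 and 319 when it was Post-T 2, and on the filter, since with at least 10 counts a gene edgeR called 0 (699 at an unadjusted p under 0.05) and DESeq2 called 10.

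In class II antigen presentation 1 gene fell in Post-T members. H2-Ab1, a chain of the class II molecule, was at 272 and 211 CPM in Pre-T and 6.53 and 31.3 CPM in Post-T, with no overlap (log2 fold change -4.0 ± 0.65 SE, adjusted p = 0.0165, edgeR). Without Post-T 1 it did not pass (log2 fold change -2.85, adjusted p = 0.0700, edgeR). Of 10 genes of class II presentation and costimulation, H2-Ab1 fell and the other 9 did not pass, where 0.332% of all genes passed. The median log2 fold change of the 10 was -1.70. At an unadjusted p under 0.05 in edgeR there were 5 of the 10, where 6.76% of all genes passed. Cd74, the invariant chain, was at 664 and 460 CPM against 37.0 and 156 CPM (adjusted p = 0.0654, edgeR). H2-Aa was at 282 and 204 CPM against 15.2 and 110 CPM and H2-Eb1 at 356 and 209 CPM against 6.53 and 133 CPM (adjusted p = 0.234 and 0.347, edgeR). Each of these 4 genes had its lowest level in Post-T 1, and 5 of the 10 genes lay lower in both Post-T mice than in both Pre-T mice, where 27.4% of all genes did. H2-Ab1 also differed in other nuclei, by -2.84 on the log2 scale over all other kept nuclei and with 20.4 and 74.0 against 4.74 and 3.74 CPM in endothelial-gated nuclei.

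Tyrobp, which encodes the DAP12 adaptor through which TREM2 signals, was at 301 and 246 CPM in Pre-T members and 63.1 and 39.1 CPM in Post-T members (log2 fold change -2.25 ± 0.49, adjusted p = 0.0488, edgeR). It was the only one of 14 TREM2 and DAP12 signalling genes to pass, where 0.332% of all genes did. The median log2 fold change of the list was 0.16. Lyn was at 1505 and 1372 against 2181 and 986 CPM, Syk, the kinase bound by DAP12, at 468 and 481 against 723 and 454 CPM and Pik3ap1 at 710 and 584 against 958 and 422 CPM. These kinase and adaptor genes overlapped between groups. Without Post-T 1, Pre-T 1 or Pre-T 2 the adjusted p of Tyrobp in edgeR was 0.0693, 0.234 or 0.301, and without Post-T 2 it was 0.00631. Tyrobp also differed by -2.76 over all other kept nuclei.

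Fgf13 had the smallest adjusted p, and its log2 fold change ran from -9.55 to -5.88 with 1 mouse left out. This member of the FGF family, which acts inside the cell, was at 390 and 222 CPM in Pre-T members and at 4.35 and 0 CPM in Post-T members (log2 fold change -6.30 ± 0.74, adjusted p = 0.000361, edgeR). In Pre-T it came from the Gpnmb/Mmp12/Atp6v0d2 subset (449 and 324 CPM, against 0 and 0 CPM in the Itgad subset), and in Post-T that subset had 13 and 0 CPM. Endothelial-gated nuclei held 11.98 and 6.34 CPM in Pre-T and 3.68 and 3.17 CPM in Post-T, and all other nuclei differed by -1.02. Few nuclei carried it, since Fgf13 was found in 14.4 and 9.09% of Pre-T members and in 2.41 and 0% of Post-T members.

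Slit3, the guidance protein of the Itgad subset, was at 370 and 296 CPM in Pre-T members and 60.9 and 7.82 CPM in Post-T members (log2 fold change -2.91 ± 0.58, adjusted p = 0.0338, edgeR). Slit3 was found in 8.65, 21.8, 9.64 and 2.70% of members, so that few nuclei carried the level of Pre-T 1 and the share of Post-T 1 was not below it. The Itgad subset had its most members in Post-T 1. Mef2c, a transcription factor of myeloid and endothelial cells, was at 222 and 143 against 19.6 and 31.3 CPM (-2.85 ± 0.56, adjusted p = 0.0331, edgeR). In endothelial-gated nuclei Mef2c ran the other way, at 144 and 180 against 272 and 388 CPM, with no test of the difference. It did not pass without Post-T 1, Pre-T 1 or Pre-T 2 (adjusted p = 0.138, 0.147 and 0.0663, edgeR). Plxdc2, a transmembrane plexin domain protein, was at 165 and 76.7 against 6.53 and 23.5 CPM (-3.27 ± 0.70, adjusted p = 0.0458, edgeR), and Insyn2b at 167 and 114 against 10.9 and 23.5 CPM (-3.14 ± 0.62, adjusted p = 0.0331, edgeR). Plxdc2 and Insyn2b were low in endothelial-gated nuclei of all 4 mice, at 0.576 to 17.4 CPM. Pde11a (a phosphodiesterase, found in only 3.85 and 10.9% of Pre-T members), the antisense RNA Adap2os and Mast4 (a kinase) also fell, with log2 fold changes of -4.32, -2.63 and -2.47, and none of these 5 genes passed without Post-T 1 nor, but for Plxdc2, without Pre-T 2. Without Pre-T 1, Adap2os, Plxdc2 and Insyn2b did not pass either (adjusted p = 0.369, 0.224 and 0.0910, edgeR).

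A further group of lowered genes belongs to hepatocytes. Hamp, the iron hormone hepcidin, was at 43.0 and 346 CPM in Pre-T members and at 0 in both Post-T mice (adjusted p = 0.0165, edgeR), and endothelial-gated nuclei had 180 and 482 against 0.526 and 0.576 CPM. G6pc, which releases glucose, was at 162 and 283 against 13.1 and 31.3 CPM (log2 fold change -3.46 ± 0.60, adjusted p = 0.0262, edgeR). Fbp1, an enzyme of gluconeogenesis, was at 59.7 and 315 against 13.1 and 7.82 CPM (-3.90 ± 0.76, adjusted p = 0.0331, edgeR). In endothelial-gated nuclei G6pc was at 630 and 476 against 140 and 85.5 CPM and Fbp1 at 284 and 361 against 184 and 33.4 CPM. Mup3, Cyp2j5, Hsd17b13, Thrsp and Arg1 also fell (log2 fold changes of -4.18 to -3.07). For G6pc, Fbp1, Cyp2j5 and Hsd17b13 the levels in members lay below those of endothelial-gated nuclei in each mouse, and the part of free hepatocyte RNA in the calls was not tested. None of these 8 genes passed without Pre-T 2 or without Post-T 1, with Hamp at an adjusted p of 0.0972 and 0.208 and G6pc at 0.150 and 0.116 in edgeR. Arg1 is also a gene of alternatively activated macrophages, and was at 83.6 and 283 against 26.1 and 7.82 CPM in members and 240 and 335 against 98.9 and 4.61 CPM in endothelial-gated nuclei.

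The 5 named genes that rose in Post-T members were higher in other nuclei too. Fkbp5, a chaperone induced by glucocorticoids, was at 47.8 and 63.4 CPM in Pre-T and 387 and 430 CPM in Post-T members (log2 fold change 2.95 ± 0.49, adjusted p = 0.0176, edgeR), and all other nuclei differed by 3.07. Cdk8, a kinase of the Mediator complex, was at 325 and 349 against 1428 and 2261 CPM (2.53 ± 0.54, adjusted p = 0.0464, edgeR), beside 3.34 in all other nuclei. Scara5, a ferritin receptor, was at 9.56 and 21.1 against 159 and 70.4 CPM (3.04 ± 0.61, adjusted p = 0.0369, edgeR), beside 3.31. Levels of these 3 genes in members lay below those of endothelial-gated nuclei in both Post-T mice. Slco1a4, an organic anion transporter, was at 21.5 and 10.6 against 71.8 and 164 CPM (2.85 ± 0.62, adjusted p = 0.0488, edgeR). Meg3, a long noncoding RNA, was at 0 in both Pre-T mice, 4.35 CPM in Post-T 1 and 422 CPM in Post-T 2 (adjusted p = 0.0331, edgeR), so that the call rested on Post-T 2, where endothelial-gated nuclei had 718 CPM. Without Post-T 2, Meg3 had too few UMIs to be tested. Fkbp5, Cdk8, Scara5 and Slco1a4 did not pass without Pre-T 1 or without Pre-T 2, with Fkbp5 at an adjusted p of 0.187 and 0.224 and Cdk8 at 0.547 and 0.937 in edgeR, and Scara5 also not without Post-T 1 (0.312).

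**Figure D5:**
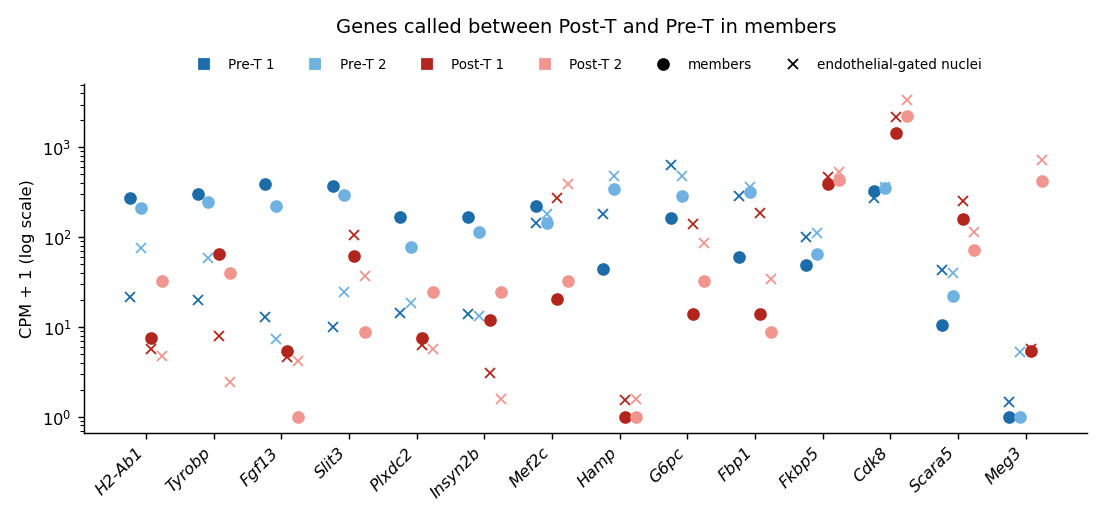
CPM + 1 (log scale) of 14 genes called between Post-T and Pre-T members (edgeR, adjusted p under 0.05), with circles for members and crosses for endothelial-gated nuclei of the same mouse. H2-Ab1 to Mef2c are lower in members of both Post-T mice. From Hamp on, the crosses move the same way as the circles. Before Hamp, the crosses of H2-Ab1 and Fgf13 also do so, while those of Slit3 and Mef2c go the other way.

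No gene of the lipid and lysosome lists was called between Post-T and Pre-T members. None of 22 LAM genes tested, 25 lysosomal genes, 24 genes of cholesterol and lipid handling, 16 vacuolar ATPase subunits or 11 MiT/TFE genes was called. Of all genes only 0.332% were called, so a count of 0 does not set these lists apart. At an unadjusted p under 0.05 in edgeR there were 5, 0, 2, 2 and 1, where 6.76% of all genes passed. Their median log2 fold changes were -0.38, -0.16, 0.13, -0.05 and 0.44, beside -0.11 for all genes. Of the 25 lysosomal genes, 11 lay lower in both Post-T mice than in both Pre-T mice and 1 higher, where 27.4 and 10.6% of all genes did. Of the MiT/TFE genes, 5 of 11 lay higher and 0 lower. Igf1, a growth factor on the LAM list, was at 382 and 486 against 69.7 and 133 CPM (adjusted p = 0.0882, edgeR).

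For several lipid genes the 2 Post-T mice lay on either side of Pre-T. Abca1 was at 246 CPM in Post-T 1 and 2136 CPM in Post-T 2 against 1190 and 812 CPM in Pre-T. Mmp12 had the same arrangement, as did Gpnmb, Atp6v0d2, Lgals3, Psap and Mitf. With only Post-T 1 in that group, the log2 fold change of Abca1 turned negative and passed the test (-1.93, adjusted p = 0.00658, edgeR), against 0.32 with both mice. The 2 Post-T mice thus differed from Pre-T in opposite directions in these levels.

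None of the 16 chemokine and receptor genes and 11 complement genes tested from the lists was called by edgeR between Post-T and Pre-T members. Of all genes 0.332% were called. Of the 16 chemokine and receptor genes, 6 passed an unadjusted p of 0.05, where 6.76% of all genes did, and 9 lay lower in both Post-T mice, where 27.4% of all genes did, with a median log2 fold change of -1.06. Cxcl13, a chemokine outside the list, was called, with 146 UMIs in Post-T 1 and at most 1 in each other mouse. Ccr2, the receptor that draws monocytes into tissue, was at 167 and 180 against 13.1 and 54.8 CPM (adjusted p = 0.0780, edgeR). Cx3cr1, a receptor of patrolling monocytes and resident macrophages, was at 81.2 and 68.7 against 6.53 and 15.6 CPM (adjusted p = 0.0882, edgeR). Of the 11 complement genes, 2 passed an unadjusted p of 0.05 and 4 lay lower in both Post-T mice, beside the same 6.76 and 27.4% of all genes. C1qa, a subunit of complement C1q, was at 284 and 264 against 120 and 70.4 CPM (adjusted p = 0.370, edgeR). For Ccr2, Cx3cr1 and C1qa all other nuclei differed in the same direction, by -2.87, -1.60 and -1.71 on the log2 scale.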

How the data were processed

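Nuclei of 6 mouse livers were sequenced on the 10x Genomics droplet platform. The authors aligned reads to mm10 with Cell Ranger 6.1.1 (per the labels and methods) and deposited raw UMI counts per gene and barcode, without normalization. Whether intronic reads were counted is not given in the sources used here. Members, classes and gene lists were chosen with earlier results of these data known. The filter of the study (over 200 and under 5000 genes, under 5% mitochondrial UMIs) left 39012 of 41882 barcodes. CPM were computed here from UMIs summed per mouse and class.

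Summed counts of members were tested with edgeR 4.0.16 in R 4.3.3 (TMM, quasi-likelihood, Benjamini-Hochberg adjustment, at least 3 counts per gene) over the 4 mice with at least 10 members, with DESeq2 1.42.0 as an alternative. Only 2 residual degrees of freedom were left. The replicates are separate mice. Shares were compared by exact permutation over mice in Python 3.11.15 (scipy 1.17.1, scanpy 1.11.5 for Scrublet). The script was tested on simulated data for Post-T against Pre-T members. There it called 98 of 100 genes changed by 4 on the log2 scale and 46 of 100 changed by 2. The changed genes were drawn from those with at least 100 UMIs in sum, so detection among rarer genes was not measured. Of unchanged genes, 22 of 13398 were called, beside 47 of 14168 genes in the data. Calls can thus include unchanged genes, and smaller changes can be missed. Library depth was 22453658 to 40307564 UMIs and members held 418474, 378281, 459382 and 127822 UMIs in Pre-T 1, Pre-T 2 and then Post-T 1, Post-T 2.

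Genes named between groups were up to 25 with the largest fold change among those called, with a mean of at least 50 CPM and no overlap. From each gene list the 4 most abundant were eligible, and against other classes the 20 or 15 genes with the most extreme mean log2 ratio over mice (pseudocount of 1 CPM). Genes outside this rule (among them Cd36, Lpl, Vsig4, Cx3cr1, Top2a, Mki67, Hmox1 and some of those named for the subsets) were chosen after their values were seen. Positions are from the GENCODE vM21 annotation of GRCm38, the assembly behind mm10. Of the genes chosen for the lists, 1 is not reported here.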

Additional observations from a re-analysis of the deposited data

Results flagged for a closer look

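In members of the 4 Western diet mice, the summed level of 11 MiT/TFE and mTORC1 genes was 2361, 2226, 2020 and 4358 CPM in Pre-T 1, Pre-T 2 and then Post-T 1, Post-T 2. Post-T 2 lay apart from the other 3, with a gap of 0.854 of the whole range. It was 1 of 41 values checked in this way, and chance alone sets about 1 in 20 apart. Mitf (1424 CPM) and Fnip2 (1502 CPM) of Post-T 2 made up most of the sum, and in Kupffer-type nuclei of the same mouse the list summed to 2512 CPM.

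Barcodes that the filter left out also held the marker pattern of the members. Of 1835 barcodes with 5000 or more genes, 23 met the marker part of the rule, 0 in either Ctrl mouse and 11, 6, 5 and 1 in the Western diet mice. Of 1035 barcodes with 5% or more mitochondrial UMIs, 21 met it, again 0 in Ctrl and 9, 7, 5 and 0 in the Western diet mice. None of these barcodes were members, and those with 5000 or more genes entered only the recomputation with no upper limit on genes.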

How the results depend on the processing

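Of 92 recomputed differences in share, 75 moved by less than the spread between mice and 17 by more. Sign changes were counted only where the groups did not overlap at first, and there were 0 of these. The difference in share of all nuclei fell to 0.432 points (Western diet against Ctrl), 0.555 (Pre-T against Ctrl) and 0.308 (Post-T against Ctrl) with at least 3 markers, and to 0.240 (exact permutation p = 0.133), 0.397 and 0.0836 after thinning to 500 UMIs. It was 1.91 points for Pre-T with 1 Clec4f UMI allowed. In the macrophage gate these 3 differences were 2.84 (exact permutation p = 0.133), 2.30 and 3.37 points with at least 3 markers, 2.10, 2.73 and 1.46 after thinning and 8.95, 8.402 and 9.5005 under 1% mitochondrial UMIs. Post-T against Pre-T, where the groups overlapped and no sign change was counted, did change sign there. It was -1.27 points after thinning, against 1.88, a move beyond the spread between mice.

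The 47 genes called between Post-T and Pre-T became 10 with DESeq2, 188 with no filter, 0 with at least 10 counts and 158 with at least 3 markers, and 22 to 319 on leaving out 1 mouse. A mouse left alone in its group was assumed to vary like the others. Of 24 named genes called, 15 were still called without Pre-T 1, 5 without Pre-T 2 and 7 without Post-T 1, and 23 of 23 without Post-T 2. With DESeq2 6 of 23 were still called (Cdk8, Fgf13, Fkbp5, G6pc, H2-Ab1 and Mup3), with at least 3 markers 15 of 24, among them Tyrobp, Hamp, Mef2c and Meg3 but not Slit3, G6pc or Scara5, and with at least 10 counts none. Abca1 changed sign on leaving out 1 mouse, with fold changes from -1.93 to 1.18 on the log2 scale, the lowest without Post-T 2. Without the top 10% of Scrublet scores, an alternative chosen after seeing the data, 51 genes were called. Causes were not tested.

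With the replicate number as a block, 126 genes were called and all 24 named genes stayed called. Same-numbered mice deviated together with a correlation of 0.131 over 11093 genes, but with only 2 pairs and nothing in the labels that ties the numbers the pairing is not established. Comparisons of genes with Ctrl were not run, since those mice held 1 and 2 members. Depth limits single genes most in Post-T 2, whose members held 127822 UMIs.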

Other observations

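No gene of the lists for proliferation, iron and heme, or interferon response was called between Post-T and Pre-T members by edgeR. At an unadjusted p under 0.05 in edgeR there were 1, 4 and 2 genes. Of all genes 0.332% were called and 6.76% passed that unadjusted p. Proliferation genes summed to 846, 293, 668 and 250 CPM in members of Pre-T 1, Pre-T 2 and then Post-T 1, Post-T 2, against 257, 419 and 195 CPM in Kupffer-type nuclei of Pre-T 1, Pre-T 2 and Post-T 2. Replicate 1 of both groups had more than replicate 2, and 0 of 18 genes were called by edgeR (1 at an unadjusted p under 0.05, where 6.76% of all genes were). Top2a and Mki67, which mark dividing cells, were at 55.0, 15.9, 52.2 and 0 CPM and at 55.0, 10.6, 45.7 and 0 CPM. Osteoclast-type genes such as the RANK gene Tnfrsf11a summed to 640, 590, 546 and 696 CPM in members, above the 426 to 528 CPM of Kupffer-type nuclei in each of the 3 mice compared, with no test.

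Interferon genes ran below the Kupffer-type level, and the iron genes here are given for members alone. The ferritin chains Fth1 and Ftl1 were at 1118, 960, 148 and 430 CPM and at 1071, 1499, 239 and 454 CPM in members, lower in both Post-T mice (adjusted p = 0.262 and 0.213, edgeR). Hmox1, which breaks down heme, was at 28.7, 26.4, 50.1 and 133 CPM. Of the 10 iron and heme genes, 4 passed an unadjusted p of 0.05. The 17 interferon response genes summed to 1013, 822, 503 and 1087 CPM in members against 1870, 1409 and 1168 CPM in Kupffer-type nuclei, and 0 of 16 tested were called by edgeR (2 at an unadjusted p under 0.05). In both Post-T mice 8 of these 16 lay lower than in both Pre-T mice and 1 higher, where 27.4 and 10.6% of all genes did. Irf8, a transcription factor of the list, was at 438 CPM in Post-T 2 and at 43.5 to 162 CPM in the other 3 mice.

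Of the 47 called genes, 8 overlapped between groups, and 7 of these, named after their values were seen, were found almost only in Post-T 1. Cxcl13, a chemokine that attracts B cells, had 1, 1, 146 and 0 UMIs in members. Stk32a had 0, 0, 76 and 0 UMIs, Rtl4 had 0, 0, 86 and 0, and Rbfox1, an RNA-binding protein best known from neurons, had 1, 2, 128 and 0. Atf7ip2, Epha7 and Dkk2 had 70, 63 and 75 UMIs in Post-T 1 and at most 1 in each other mouse. In endothelial-gated nuclei of Post-T 1, Cxcl13 was at 103 CPM against 318 CPM in its members, and Stk32a at 4.74 against 165 CPM.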
